A study of Mus musculus with 4 samples.

Results

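The HoxA cluster of mouse chromosome 6 holds a row of homeobox genes, of which 10 were followed here: *Hoxa2*, *Hoxa3*, *Hoxa4*, *Hoxa5*, *Hoxa6*, *Hoxa7*, *Hoxa9*, *Hoxa10*, *Hoxa11* and *Hoxa13*. They were chosen by their RefSeq symbols, with earlier results of these data known, among 23732 genes with an ID in the files. Of the 32757 transcript IDs, 12 belong to them. RNA-seq was done on imMDFs, immortalized murine dermal fibroblasts, as total RNA depleted of rRNA. There were 2 libraries of *Tmpo* WT (Lap2alpha +/+) and 2 of *Tmpo* KO (Lap2alpha -/-), 1 of each at passage 34 (replicate 1) and 1 of each at passage 42 (replicate 2), with no treatment in either group. The knockout deletes exon 4 of *Tmpo*, which encodes the part particular to LAP2alpha, a nucleoplasmic partner of lamin A/C. Each genotype is known from a single line, so the effect of the genotype and of the line cannot be told apart. The replicates are described by passage alone and may not be separate cultures. The test of the genotype leaves the passage out. Its p-values therefore reflect the spread between passages 34 and 42, and may not reflect that between separate cultures. In bulk RNA, fewer cells that express a gene and less RNA per cell cannot be told apart.

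Hox proteins are transcription factors with a DNA-binding homeodomain, and they give cells along the body axis their regional identity. The genes of a cluster lie in the order in which they are used in the embryo, from those active early and towards the head, such as *Hoxa2*, to those active late and towards the tail and the limb ends, such as *Hoxa13*. Retinoic acid receptors, Polycomb and trithorax proteins and CTCF are known regulators of the clusters, and adult fibroblasts of the skin keep part of the Hox pattern of the site they came from.

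In *Tmpo* KO cells *Hoxa2* alone among the tested HoxA transcripts passed the test, with a level 2.56 times that of WT, while its neighbour *Hoxa3* did not pass. The other tested members had fold changes between −0.49 and 0.31 on the log2 scale, none of them called. No member was called between the passages.

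The members lie on the minus strand of chromosome 6, from 52112350 (*Hoxa2*) to 52210797 (*Hoxa13*) in mm9, the build of the authors' mapping. *Hoxa2* has 2 exons and ends at 52115412. *Hoxa3* has 5 exons from 52118509 to 52163066, and the whole of *Hoxa4*, *Hoxa5* and *Hoxa6* lies between its ends on the same strand. These positions are those of the GENCODE annotation of the same build. The members share the homeobox, whose sequence is shown because reads of related genes could in principle be mixed up there. It has 180 bases in each gene, and the 60 bases at its 3′ end code for the end of the homeodomain, with the helix that lies in the major groove of DNA. In *Hoxa2* these bases are at chr6:52113410-52113469 of mm9, read here on the minus strand, in exon 2. The same 60 bases follow for *Hoxa4* (chr6:52140482-52140541), *Hoxa13* (chr6:52208927-52208986) and *Hoxb2* (chr11:96214419-96214478, plus strand), the paralog of *Hoxa2* in the HoxB cluster, with capitals for the bases that differ from *Hoxa2*.
Hoxa2: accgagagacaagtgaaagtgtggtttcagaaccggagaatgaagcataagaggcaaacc
Hoxb2: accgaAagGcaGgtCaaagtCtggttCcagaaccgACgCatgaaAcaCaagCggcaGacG
Hoxa4: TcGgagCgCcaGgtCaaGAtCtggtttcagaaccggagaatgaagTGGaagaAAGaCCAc
Hoxa13: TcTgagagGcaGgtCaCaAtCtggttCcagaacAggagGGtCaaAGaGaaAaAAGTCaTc
*Hoxb2* differs from *Hoxa2* at 14 of these bases, *Hoxa4* at 18 and *Hoxa13* at 23. Over the 180 bases of the homeobox, identity to *Hoxa2* was 74.4% for *Hoxb2*, 68.9% for *Hoxa3*, 63.3% for *Hoxa4* and 49.4% for *Hoxa13*. The closest pair among the members was *Hoxa6* and *Hoxa7* with 88.9%. For runs of identical bases, a single coding transcript of each Hox gene was compared. The longest run that the *Hoxa2* transcript shares with that of another Hox gene has 33 bases (with *Hoxc9*), and with *Hoxb2* it has 13. For *Hoxa6* it has 52 bases (with *Hoxb4*), for *Hoxa7* 47 (with *Hoxa6*) and for *Hoxa3* 36 (with *Hoxa6*). Another *Hoxa3* transcript in GENCODE, left out of this comparison, covers 267 exon bases of *Hoxa2*. No read length is stated in the methods or labels, and only reads with a mapping quality above 20 were counted.

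Reads given to transcripts numbered between 12168433 and 19603812 per library, between 31.4% and 36.7% of all reads in the file. Levels are CPM, that is counts scaled to a common library size, here these reads with TMM factors. The *Tmpo* transcript NM_011605 had 903 and 1324 counts in the WT libraries and 6 in each KO library, so the labels hold. This says nothing of the amount of the shortened transcript. Of the 10 listed fibroblast markers, *Col1a1*, *Col1a2*, *Col3a1* and *Vim* were abundant and *Pdgfrb* was listed at 0 in every library. *Pdgfra* (WT and KO means 3.39 and 2.54 CPM), *Lum* (1.80 and 1.15 CPM) and *Dcn* (9.38 and 4.13 CPM) were low. Each was below the melanocyte marker *Tyr* (30.8 and 35.2 CPM). *Fn1* (51.8 and 41.2 CPM) and *Thy1* (295 and 1031 CPM) lay between the low and the abundant markers. The summed level of the 10, mostly collagens and *Vim*, was 12864 to 13755 CPM in WT and 11487 to 15693 CPM in KO. The surface marker *Thy1* was the only one of the 9 tested that passed the test (log2 fold change 1.80, adjusted p = 0.00469, edgeR's quasi-likelihood test). The median over these 9 was −0.33, and 2 had an unadjusted p under 0.05, *Thy1* and *Dcn* (log2 fold change −1.18, adjusted p = 0.194, edgeR's quasi-likelihood test). Summed markers of keratinocytes (10.8 to 13.98 CPM), melanocytes (35.0 to 49.4 CPM), endothelial cells (5.31 to 6.13 CPM), leukocytes (2.23 to 2.95 CPM), skeletal muscle (3.53 to 7.46 CPM) and Schwann cells (1.82 to 2.71 CPM) overlapped between the genotypes, and none of their tested genes was called by edgeR's quasi-likelihood test or DESeq2 (which gave 1 leukocyte marker no adjusted p), with an unadjusted p under 0.05 for 1 of them, the keratinocyte marker *Cdh1*. *Trp63*, *Tek*, *Cd68* and *Itgam* were listed at 0 in every library. Like *Pdgfrb*, each of them has at least 2 transcript IDs, and reads that match several IDs were set aside, so a 0 does not show that the gene is silent.

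HoxA transcripts were rare in these cells. In each of the 4 libraries the genes from *Hoxa2* to *Hoxa5* had higher levels per length than those from *Hoxa6* to *Hoxa13*. Levels between genes are given as CPM per kilobase of exon, the mean of 2 libraries. In WT cells *Hoxa4* was highest with 4.75, followed by *Hoxa3* with 3.32, *Hoxa5* with 2.57 and *Hoxa2* with 2.22, and the ranges of the 2 libraries of these 4 genes did not overlap. *Hoxa13* (1.16), *Hoxa7* (0.999) and *Hoxa10* (0.883) came next. The ranges of *Hoxa13* and *Hoxa7* overlapped, as did those of *Hoxa7* and *Hoxa10* and those of *Hoxa6* (0.532) and *Hoxa11* (0.4999). *Hoxa9* was lowest with 0.0328. In KO cells *Hoxa2* was first with 5.69, above *Hoxa4* with 3.39, *Hoxa3* with 3.18 and *Hoxa5* with 2.55, and the ranges of these last 3 overlapped. The order depends on the length used. Where only exon bases that no other gene covers are taken, *Hoxa3* in WT is at 5.11 and above *Hoxa4*. *Hoxa9* and *Hoxa10* have 2 IDs each, and reads in exons that the IDs of a gene share were set aside as ambiguous, so their levels are too low by an unknown amount.

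**Figure D1:**
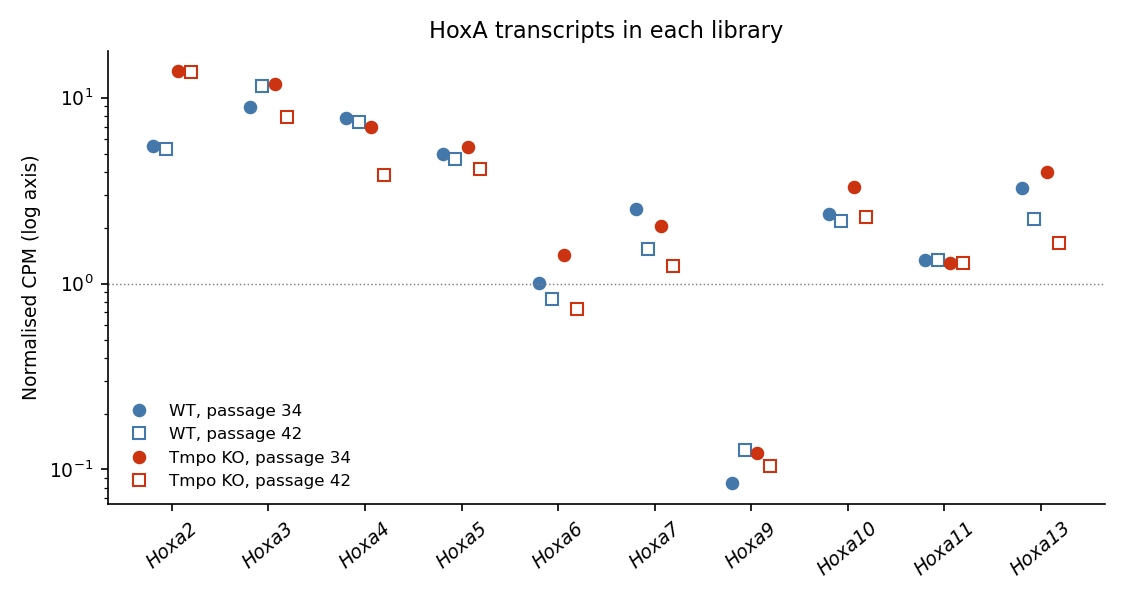
Normalised CPM (log axis) of the 10 HoxA genes in chromosomal order, 1 point per library, with filled circles for passage 34 and open squares for passage 42, blue for WT and red for *Tmpo* KO; the dotted line is at 1 CPM. For *Hoxa2* both KO points, at 13.9 and 13.7, lie above both WT points, at 5.47 and 5.30, while *Hoxa9* stays near 0.1.

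*Hoxa2*, which patterns the second pharyngeal arch and the hindbrain, was the member that changed. At passage 34 it had 65 counts in WT and 225 in KO (5.47 and 13.9 CPM). At passage 42 it had 83 counts in WT and 264 in KO (5.30 and 13.7 CPM). Both KO libraries lay above both WT libraries, with a WT mean of 5.39 ± 0.124 CPM (SD, n = 2) and a KO mean of 13.8 ± 0.109 CPM (SD, n = 2). Counting error alone allows a wider spread than these SDs. For the ratio of passage 42 to 34 its exact 95% interval was 0.691 to 1.36 in WT and 0.825 to 1.19 in KO. The log2 fold change was 1.36 (standard error 0.309, 95% interval 0.68 to 2.03, adjusted p = 0.0419, edgeR's quasi-likelihood test with Benjamini-Hochberg adjustment over 13855 transcripts). The ratio of KO to WT was 2.53 at passage 34 (exact 95% interval 1.91 to 3.39) and 2.59 at passage 42 (2.02 to 3.35), where the intervals cover counting error only. Over all settings that keep every library the log2 fold change was between 1.34 and 1.38 and the adjusted p between 0.0014 and 0.0482. The call was lost without WT replicate 1 (log2 fold change 1.39, adjusted p = 0.282, edgeR's quasi-likelihood test) and without WT replicate 2 (1.33, adjusted p = 0.395), fits in which 1 WT library is left and is assumed to vary like the KO libraries.

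Of the 10 members, 8 reached 1 CPM in both replicates of a genotype and were tested, and 1 of the 8 was called higher in KO and 0 lower by edgeR's quasi-likelihood test. DESeq2 made the same call and gave *Hoxa11* no adjusted p. An unadjusted p under 0.05 was found for 1 of the 8, *Hoxa2*, against 12.8% of all tested transcripts. Over all tested transcripts 1.51% were called higher and 1.24% lower, 2.75% in either direction. Both KO libraries lay above both WT libraries for 1 tested member, *Hoxa2*, against 21.9% of all tested transcripts, and below them for 2, *Hoxa4* and *Hoxa11*, against 19.9%. The median log2 fold change of the tested members was −0.03, and that of all tested transcripts was 0.02.

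*Hoxa3* is needed for the thymus and parathyroid. At passage 34 it had 106 counts in WT and 192 in KO (8.93 and 11.8 CPM), and at passage 42 the WT library had 182 and the KO library 151 (11.6 and 7.84 CPM). KO was the higher library at the earlier passage and the lower one at the later passage. The ratio of KO to WT was 1.33 (exact 95% interval 1.04 to 1.70) and 0.675 (0.540 to 0.842), each interval for counting error only. The fitted log2 fold change over both passages was −0.07 (standard error 0.333, 95% interval −0.80 to 0.66, adjusted p = 0.972, edgeR's quasi-likelihood test).

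*Hoxa4*, a gene of neck and upper trunk vertebrae, counted 92 reads in WT against 113 in KO at passage 34 (7.75 and 6.96 CPM). At passage 42 there were 116 reads in WT and 74 in KO (7.41 and 3.84 CPM). Both KO libraries were below both WT libraries, and the KO library of passage 42 stood lowest. The log2 fold change was −0.49 (standard error 0.372, 95% interval −1.31 to 0.33, adjusted p = 0.697, edgeR's quasi-likelihood test), within the spread of the replicates. It was −0.99 without KO replicate 1 and −0.16 without KO replicate 2, and *Hoxa4* was called in neither fit. *Hoxa5*, which acts in the lung and the cervical vertebrae, had 4.97 and 5.42 CPM in WT and KO at passage 34 and 4.66 and 4.16 CPM at passage 42. The genotypes overlapped, at a log2 fold change of −0.01 (standard error 0.353, 95% interval −0.79 to 0.77).

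*Hoxa6* and *Hoxa7* are trunk genes of the middle of the cluster. *Hoxa6* had 12 (WT) and 23 (KO) counts at passage 34, then 13 and 14 at passage 42. It missed the limit of 1 CPM and was not tested. *Hoxa7* had 30 and 33 counts at passage 34 and 24 and 24 at passage 42. Its WT and KO libraries overlapped, at a log2 fold change of −0.30 (standard error 0.455, 95% interval −1.30 to 0.70). *Hoxa9*, known from blood stem cells and leukaemia, had 1 and 2 counts at passage 34 and 2 and 2 at passage 42, at or under the 3 counts that a count of 0 allows, so no fold is given. Its other ID, NM_001277238, had no count in any library.

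At the back of the cluster, *Hoxa10*, a gene of the uterus and the lumbar region, had 28 (WT) and 54 (KO) counts at passage 34, then 34 and 44 at passage 42. Its log2 fold change was 0.31 (standard error 0.406, 95% interval −0.59 to 1.20), with 0.0060 without KO replicate 1 and 0.51 without KO replicate 2, and the WT and KO libraries overlapped in CPM. Its other ID, NM_001122950, had between 1 and 5 counts. *Hoxa11*, needed in the forearm and the kidney, had 16 and 21 counts at passage 34 and 21 and 25 at passage 42, which is 1.35 and 1.29 CPM, and 1.34 and 1.30 CPM. Both KO libraries were below both WT libraries, but by a log2 fold change of only −0.05 (standard error 0.414, 95% interval −0.96 to 0.86). *Hoxa13*, a gene of the digits and the genital tubercle, had 39 and 65 counts at passage 34 and 35 and 32 at passage 42. It was higher in KO at passage 34 (4.01 against 3.28 CPM) and lower in KO at passage 42 (1.66 against 2.23 CPM), and the fitted log2 fold change was 0.04 (standard error 0.480, 95% interval −1.02 to 1.09).

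For the 7 tested members other than *Hoxa2* the adjusted p was 0.697 or more (edgeR's quasi-likelihood test). At these counts the intervals were wide. Their upper limits ran from 0.33 (*Hoxa4*) to 1.20 (*Hoxa10*) on the log2 scale, and their lower limits from −1.31 (*Hoxa4*) to −0.59 (*Hoxa10*). A change of the size seen for *Hoxa2* lay outside the interval of each of them. Which smaller changes an interval held differed by gene.

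**Figure D2:**
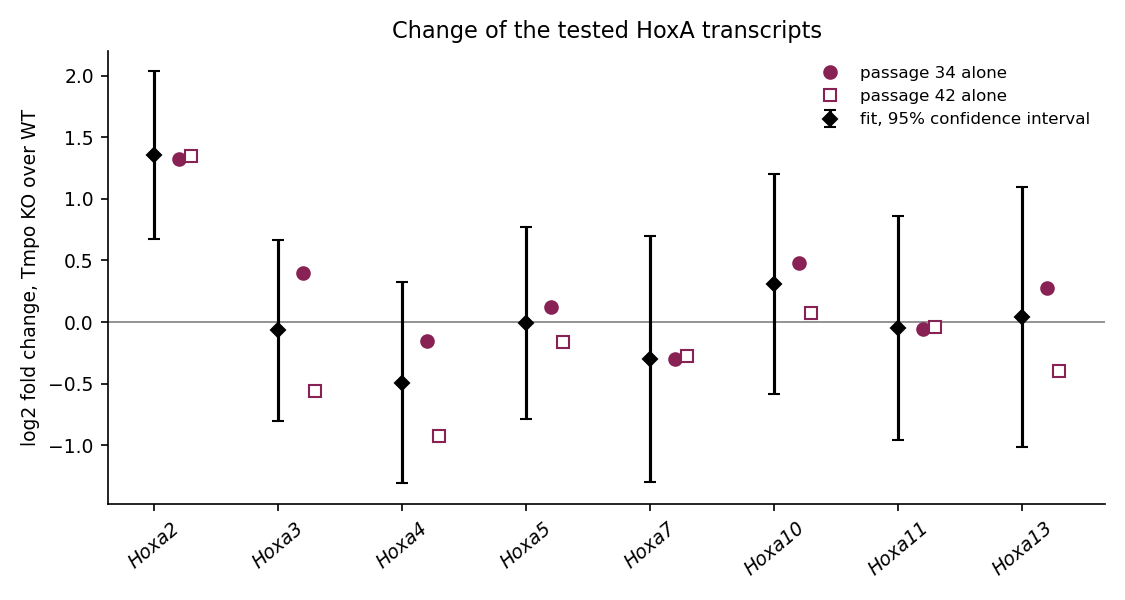
Log2 fold change of KO over WT for the 8 tested HoxA transcripts in chromosomal order, with black diamonds for the fit over 4 libraries, bars for its 95% confidence interval, and circles and squares for passages 34 and 42 alone (1 library per genotype, no error). The interval of *Hoxa2* (0.68 to 2.03) is the only one that lies above 0, and the values of *Hoxa3*, *Hoxa5* and *Hoxa13* at the passages lie on both sides of 0.

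The same *Hoxa2* counts were also set against other members within each library, where scaling between libraries plays no part. These ratios are no second observation of *Hoxa2*, and they move with the other members as well. The KO to WT ratio of *Hoxa3* itself was 1.33 at passage 34 and 0.675 at passage 42. At passage 34 the ratio of *Hoxa2* to *Hoxa3* counts was 0.613 in WT and 1.17 in KO, and at passage 42 it was 0.456 and 1.75. Against the summed counts of the 9 other members it was 0.170 and 0.381, and 0.166 and 0.592. For both ratios both KO libraries were above both WT libraries, which gives p = 0.3333 in a two-sided exact permutation test, the smallest that 2 libraries against 2 allow.

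*Hoxa2* therefore took a larger part of the HoxA reads. Its share was 14.5% in WT (65 of 448 counts, exact 95% interval 11.4 to 18.1%) and 27.6% in KO (225 of 816, 24.5 to 30.8%) at passage 34. At passage 42 it was 14.2% in WT (83 of 583, 11.5 to 17.3%) and 37.2% in KO (264 of 710, 33.6 to 40.9%). The summed level of the 10 genes was 37.7 CPM (WT) and 50.3 CPM (KO) at passage 34, then 37.2 and 36.9 CPM, so the genotypes overlapped. Without *Hoxa2* the sum was 32.3 and 36.4 CPM at passage 34, and 31.9 and 23.2 CPM at passage 42, and the KO libraries stood on both sides of the WT libraries.

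**Figure D3:**
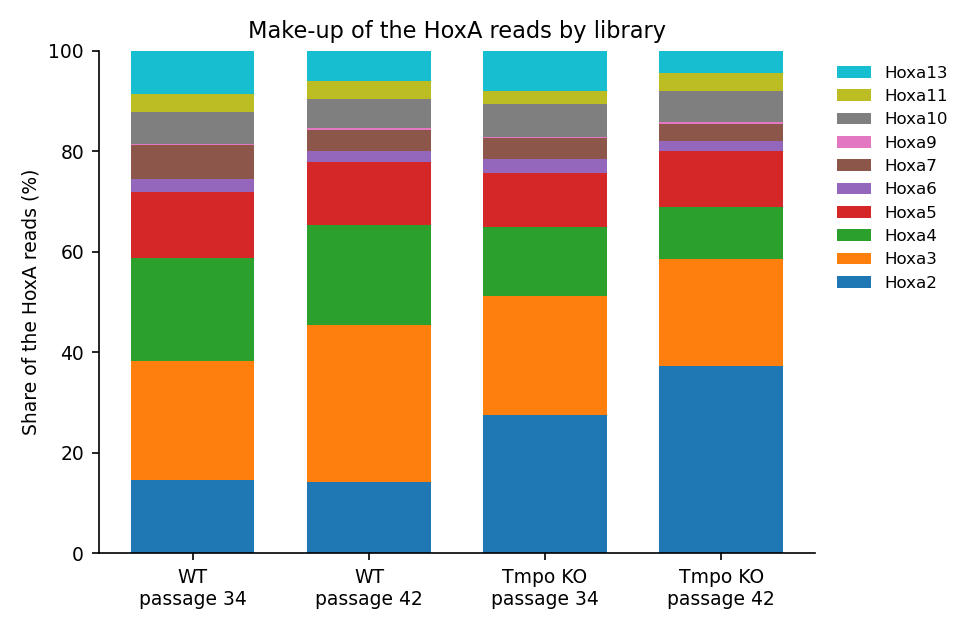
Share of each gene in the HoxA reads of a library (percent), stacked in chromosomal order from *Hoxa2* at the bottom to *Hoxa13* at the top, 1 bar per library. The part of *Hoxa2* is 14.5% and 14.2% in the WT bars and 27.6% and 37.2% in the KO bars.

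The noncoding RNAs named here were below the limit for testing, and others in the GENCODE annotation of the cluster have no ID in the files. *Hoxaas3* had between 6 and 11 counts, *Hoxa11os*, which is antisense to *Hoxa11*, between 8 and 18, and *Mir196b* at most 1. *Hottip*, a noncoding RNA made beyond *Hoxa13*, had 3 counts in each WT library and 12 and 7 in KO. *Evx1*, the first coding gene beyond *Hoxa13* and itself a homeobox gene, had 45 and 106 counts at passage 34 and 39 and 75 at passage 42. Both KO libraries were above both WT libraries, but *Evx1* did not pass (log2 fold change 0.74, standard error 0.412, adjusted p = 0.534, edgeR's quasi-likelihood test). *Skap2*, the first coding gene on the other side of the cluster, was at −0.13 on the same scale (standard error 0.254, adjusted p = 0.921). Of the coding genes outside the cluster within 1 Mb, 7 were tested and 0 were called (edgeR's quasi-likelihood test and DESeq2), 1 of them with an unadjusted p under 0.05, and their median was −0.13.

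Overlaps limit what these counts measure. In the GENCODE annotation, 267 exon bases of *Hoxa2* are also exon of a long *Hoxa3* transcript of the same strand, whereas the RefSeq genes *Hoxa2* and *Hoxa3*, with which the reads were counted, do not overlap in the RefSeq table of GRCm38.p6. On the other strand, noncoding genes cover 1083 exon bases of *Hoxa3*, 1038 of *Hoxa11* and 586 of *Hoxa7*, and *Hoxb3os* covers 1632 of the 3304 exon bases of *Hoxb2*. The protocol used dUTP and keeps the strand, but how htseq-count was set for strand is not stated in the methods or labels. Whether reads of these genes were told apart from those of their antisense partners is therefore not known.

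The start of *Hoxa2* is shown because it is the member that was called. RefSeq gives it at chr6:52164782-52165081 of GRCm38.p6 on the minus strand, 250 bases before to 50 after the first base of the gene. For *Hoxa5* and *Hoxa9* the RefSeq and GENCODE starts differ only by the shift between the builds. By that same shift, GENCODE starts *Hoxa2* further upstream, and this window lies inside the *Hoxa2* gene as GENCODE draws it. The window is therefore upstream of the RefSeq start only. Capitals mark CCAAT, the letters of the CCAAT box, and TGATTGAT, those of a joint Hox and Pbx site, on either strand.
Hoxa2 promoter: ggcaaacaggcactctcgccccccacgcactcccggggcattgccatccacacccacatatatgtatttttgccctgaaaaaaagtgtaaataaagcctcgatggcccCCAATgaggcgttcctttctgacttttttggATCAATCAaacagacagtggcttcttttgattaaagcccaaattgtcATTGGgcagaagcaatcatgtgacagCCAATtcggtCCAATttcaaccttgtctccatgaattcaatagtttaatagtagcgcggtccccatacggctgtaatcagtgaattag
CCAAT occurs 4 times, first bases at −142, −64, −38 and −28 from the RefSeq start on the strand of the gene. TGATTGAT occurs at −111, with no overlap between them. Of 32851 promoter windows of 300 bases in the table, 37.4% hold CCAAT and 0.746% hold TGATTGAT. TATAAA (13.6% of the windows) and TAATTA (5.29%), searched on both strands as well, are not in this window. Of the 9 members with an entry, CCAAT was found for 5 and TGATTGAT for 1, *Hoxa2*. G and C made up 45.7% of the *Hoxa2* window against a median of 52.7% over all windows, and 81.0% of that of *Hoxa13*. *Hoxa4* is not among the entries. These matches are letters and show no binding.

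Across the clusters, the paralog of *Hoxa2* was higher in KO as well, as were the other tested HoxB transcripts. *Hoxb2*, on chromosome 11, counted 143 reads (WT) and 592 (KO) at passage 34, then 133 and 516 at passage 42. Both KO libraries were above both WT libraries, and the log2 fold change was 1.63 (standard error 0.298, adjusted p = 0.0141, edgeR's quasi-likelihood test). The ratio of *Hoxa2* to *Hoxb2* counts was 0.455 (WT) and 0.380 (KO) at passage 34, then 0.624 and 0.512, and it overlapped between the genotypes (two-sided exact permutation p = 0.6667). Between the passages, *Hoxb2* was lower at passage 42 in each genotype (ratio 0.705 in WT and 0.735 in KO), while *Hoxa2* was at 0.968 in WT and 0.989 in KO.

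In the other clusters, 8 of 8 tested HoxB transcripts were called higher by edgeR's quasi-likelihood test and 7 by DESeq2 (all but *Hoxb3*, adjusted p = 0.0613). The log2 fold changes of these 8 were between 1.63 (*Hoxb2*) and 4.28, with a median of 3.11. In HoxC 2 of 9 were higher (*Hoxc4* with 1.69 and *Hoxc5* with 1.45) and 1 lower (*Hoxc8* with −1.08), and in HoxD 1 of 7 was higher (*Hoxd4* with 1.47). HoxA reads made up 12.0% (WT) and 8.36% (KO) of all Hox reads at passage 34, then 11.7% and 6.96%, a share that also falls when HoxB reads increase. HoxB reads summed to 31.8 CPM (WT) and 246 CPM (KO) at passage 34, then 27.6 and 161 CPM. The fold changes of the HoxA members and of the other clusters come from the same libraries, and the difference between clusters was not tested.

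**Figure D4:**
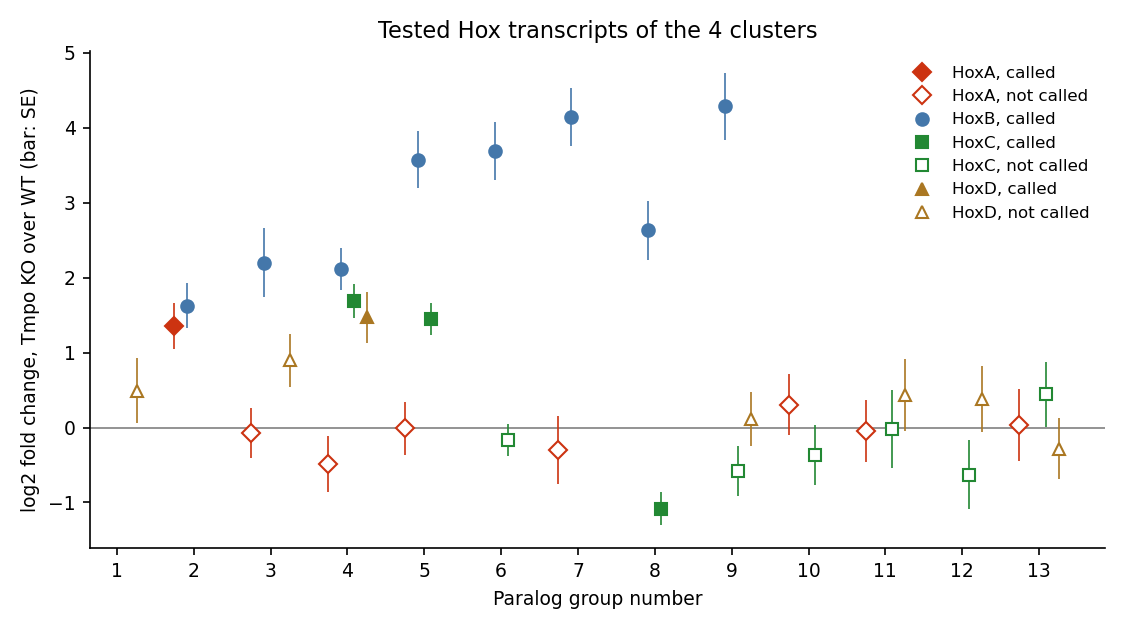
Log2 fold change of KO over WT, with its standard error as a bar, for the tested Hox transcripts of the 4 clusters by paralog group number; filled symbols were called and open symbols were not. In HoxA only *Hoxa2* (1.36) is filled, close to *Hoxb2* (1.63), the lowest HoxB symbol, and the other HoxA symbols lie between −0.49 and 0.31.

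Known partners and regulators of Hox genes were examined as lists, by counts of calls in edgeR's quasi-likelihood test. DESeq2 called 0 in each of the 5 lists of this paragraph as well, with no adjusted p for 2 Polycomb genes. An unadjusted p under 0.05 was found for 3 Polycomb genes, 2 upstream regulators and 0 genes of the other lists, against 12.8% of all tested transcripts. Of the TALE homeodomain proteins, which bind DNA together with Hox proteins, 3 of 9 reached the limit for testing and 0 were called (median log2 fold change −0.11). *Meis2* (6 IDs) and *Meis3* (4 IDs) were listed at 0 in every library, which does not show that they are silent. Of 24 tested Polycomb genes 0 were called (median −0.07), and the smallest p belonged to *Bmi1*, a PRC1 subunit, with −0.69 (adjusted p = 0.125). *Ezh2*, the main H3K27 methyltransferase, was listed at 0 in every library, and it too has 2 IDs. Of 7 tested trithorax and MLL genes 0 were called (median 0.04), and of 10 CTCF and cohesin genes 0 (median −0.08). Of 7 tested upstream regulators, which include the retinoic acid receptors, 0 were called (median −0.18). *Egr2*, a hindbrain factor that activates Hox genes of the front, had −0.79 (adjusted p = 0.247), and *Rarg* had 0.57 (adjusted p = 0.429).

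Of genes described as regulated by HoxA proteins in the embryo, 0 of 4 tested were called, with a median of −0.16 and an unadjusted p under 0.05 for 1, *Six2*. *Six2*, a homeobox gene that *Hoxa2* represses in the pharyngeal arch, had 71 (WT) and 223 (KO) counts at passage 34, then 91 and 252 at passage 42. Both KO libraries were above both WT libraries, and the log2 fold change was 1.19 (standard error 0.307, adjusted p = 0.0764, edgeR's quasi-likelihood test), which missed the threshold, while DESeq2 called it (adjusted p = 0.0184). *Meox1*, a somite homeobox gene, had −0.89 (adjusted p = 0.394).

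*Six2* was also among the transcripts most like *Hoxa2* in their levels over the 4 libraries. Likeness was measured as the Euclidean distance between log2 CPM values centred on each transcript's mean, and with 4 libraries it is a description only. The 5 nearest were *Muc1*, a mucin, at 0.0777, *Six2* at 0.171, *Slc22a23*, a transporter family member, at 0.176, *Zfp709*, a zinc finger gene, at 0.180, and *Tuba4a*, an alpha-tubulin, at 0.191. There were 15 transcripts within a distance of 0.25 and 181 within 0.5. All 5 were higher in both KO libraries, with log2 fold changes between 1.19 and 1.504, which follows from how they were picked. *Slc22a23* (adjusted p = 0.0472) and *Tuba4a* (adjusted p = 0.0080) were called by edgeR's quasi-likelihood test.

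Passage 42 was compared with passage 34 with genotype as a block. Of the 8 tested members 0 were called, against 2.31% of all tested transcripts, and 1 had an unadjusted p under 0.05, against 11.6% of all (edgeR's quasi-likelihood test). DESeq2 gave none of the 8 an adjusted p in this comparison. All 8 fitted log2 fold changes were below 0 (that of *Hoxa11* turned above 0 under 2 other settings), with a median of −0.29 against 0.01 for all tested transcripts. *Hoxa13* was furthest from 0 with −0.92 (standard error 0.425, unadjusted p = 0.0305, adjusted p = 0.336), and it was lower at passage 42 in WT (ratio 0.680, exact 95% interval 0.418 to 1.10) and in KO (0.415, 0.263 to 0.643). *Hoxa7* followed with −0.71 and *Hoxa4* with −0.46, the latter with a ratio of 0.956 in WT (0.721 to 1.27) and 0.552 in KO (0.406 to 0.747). *Hoxa2* had −0.03 and *Hoxa11* −0.00, so the level of *Hoxa2* in each genotype differed between the passages by less than its counting error. With 1 library for each genotype and passage, no test of a difference between passages in the effect of the knockout was possible.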

How the data were processed

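RNA-seq libraries of *Tmpo* WT and *Tmpo* KO imMDFs (2 each, at passages 34 and 42) were analysed, grouped by the genotype in the sample labels. The authors deposited raw counts. They trimmed adapters (cutadapt), aligned the reads to mm9 (TopHat2, version 2.0.9) and ran htseq-count over RefSeq transcripts, for reads whose mapping quality exceeded 20. Each transcript ID is its own feature, and reads that match several were set aside as ambiguous (12.1% to 13.4% of all reads), as were reads in no feature (49.9% to 56.5%). These stayed out of library sizes and tests. The labels give 10 ng and the methods 10 µg of RNA as the starting amount.

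Symbols were matched to 32308 of 32757 IDs with a RefSeq gene table (GRCm38.p6) that served for names, and the ID with the highest summed count stands for a gene. Positions and exon lengths are those of the longest coding transcript in GENCODE vM1 (NCBIM37). A transcript was tested where both libraries of a genotype reached 1 CPM. The test was the quasi-likelihood one of edgeR 4.0.16 (R 4.3.3) after TMM normalization, with p-values adjusted by Benjamini-Hochberg and a threshold of 0.05. The biological coefficient of variation was 21.8%. Standard errors come from the fold change and the test statistic. Within a passage, log2 CPM values (prior count 2) were subtracted, without a test. Intervals of ratios and shares are exact binomial ones at 95% and cover counting error only. A count of 0 allows up to 3 counts, between 0.156 and 0.253 CPM per library.

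The members and lists were chosen with earlier results of these data known. Named are the 10 members, the other genes of the cluster, the first coding gene on each side, paralogs of a called member, up to 4 genes per list with the smallest p, the 5 transcripts nearest to the member with the smallest p, and *Tmpo*. Some genes and sequences that these rules name are not reported here. The cell type markers named, *Hoxc9* and *Hoxb4* as sequence matches, *Hoxb3*, *Meis2*, *Meis3* and *Ezh2* were chosen after their values were seen. Other settings tried were DESeq2 1.42.0, the exact test of edgeR, RLE size factors, no scaling beyond library totals, other filters, counts summed per gene, a replicate block and each library left out.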

Additional observations from a re-analysis of the deposited data

Results flagged for a closer look

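3 of the 8 tested members moved in opposite directions in KO at the passages, and the difference between the passages was not tested, since each genotype has 1 library per passage. The values are log2 CPM differences of KO from WT. *Hoxa3* was at 0.40 at passage 34 and −0.56 at passage 42, a difference of −0.96. *Hoxa13* was at 0.28 and −0.40, a difference of −0.68. *Hoxa5* was at 0.12 and −0.16, a difference of −0.28, and the exact 95% counting interval of its KO to WT ratio held 1 at each passage (0.776 to 1.54 and 0.641 to 1.24). For *Hoxa13* the interval held 1 as well (0.808 to 1.86 and 0.446 to 1.24), and for *Hoxa3* it did not at either passage.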

How the results depend on the processing

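*Hoxa2* was higher in KO under all 13 settings (log2 fold change 1.32 to 1.39) and called in 11, all but those without a WT replicate. The number of HoxA members called was therefore 0 to 1 when each library was left out in turn and 1 otherwise. The number of all transcripts called between the genotypes was 381, but 740 with no filter on low counts, 613 with edgeR's exact test, and 109 to 1291 with each library left out in turn (109 and 175 without WT replicate 2 and 1, 842 and 1291 without KO replicate 1 and 2). It was 1092 with the replicate number as a block. No source pairs the libraries beyond their passage, and same-numbered libraries deviated together with r = 0.175, from only 2 pairs. The block changed no call among the members. Directions turned only for members that were not called. *Hoxa5* was at 0.0203 with library totals alone, and *Hoxa13* at −0.0489 with the replicate block. With each library left out in turn, *Hoxa3* was between −0.40 and 0.16, *Hoxa5* between −0.22 and 0.13, *Hoxa7* between −0.69 and 0.11 and *Hoxa13* between −0.72 and 0.51. For the passages, 320 transcripts were called, but 48 with DESeq2, 145 with 1 CPM in all 4 libraries and 0 with genotype left out of the model (no replicate block), and *Hoxa11* turned to 0.0275 with no filter and 0.000558 with counts summed per gene. 0 members were called by passage in each of these settings but DESeq2, which gave none of the 8 an adjusted p and so no count. The causes were not tested. For the passages, edgeR's exact test cannot take the genotype block, and fits without 1 library leave no residual degrees of freedom, so these were not run.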
